A study of Mus musculus with 2 samples.

Results

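The 7 long noncoding RNA genes described here are Malat1 and Neat1, which are expressed in most tissues and stay in the nucleus, the neuronal RNAs Meg3, Miat and Snhg11, and Mir124a-1hg and Mir124-2hg, the transcripts from which the microRNA miR-124 is cut. They were taken by symbol from 31053 genes counted in droplet single-cell libraries of mouse retina. The choice was made with earlier results of these libraries known, and their levels by cell class and by mitochondrial share were part of it, so those levels are given as a description with no test. One library came from mice given MSC-sEV (the labels' term, not expanded there) after optic nerve injury and the other from injured mice given PBS. All animals were C57BL/6 mice of 6 to 8 weeks, taken 2 weeks after the injury, and the retinas of 6 mice per group were pooled. Tissue was digested with papain, and cells were enriched with magnetic beads against CD45, a surface protein of leukocytes. Each group is 1 library (n = 1), so no difference between MSC-sEV and PBS has a replicate check, and the 95% intervals below cover counting error only.

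Malat1 is an abundant RNA of nuclear speckles, bodies rich in splicing factors, and its mature end is made by cleavage rather than by ordinary polyadenylation. Neat1 is the scaffold of paraspeckles, nuclear bodies that hold RNA-binding proteins and some messenger RNAs; it has a short and a long form, and the long form builds the body. Meg3 is transcribed from the maternal copy of the imprinted Dlk1-Dio3 region, Miat (also called Gomafu or Rncr2) is a nuclear RNA of neurons that binds splicing factors, and Snhg11 carries small nucleolar RNAs in its introns. The miR-124 host transcripts are cut in the nucleus to release the hairpin of miR-124, a microRNA of neurons and photoreceptors that lowers transcripts of non-neuronal cells such as Ptbp1.

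Malat1 (ENSMUSG00000092341, chr19:5795690-5802672, minus strand) and Neat1 (ENSMUSG00000092274, chr19:5824708-5845478, minus strand) lie 22035 bases apart. Meg3 (ENSMUSG00000021268) lies at chr12:109541001-109571726, Miat (ENSMUSG00000097767) at chr5:112213228-112229395 on the minus strand and Snhg11 (ENSMUSG00000044349) at chr2:158375638-158386145. Mir124a-1hg (ENSMUSG00000097545, chr14:64587331-64593961) holds the hairpin gene Mir124a-1, and Mir124-2hg (ENSMUSG00000100252, chr3:17789921-17808970) holds Mir124a-2. All coordinates are GRCm38 with GENCODE M21 annotation. That annotation gives Snhg11 the type protein coding and the other members a long noncoding type. Snhg11 is kept here among the noncoding genes. Opposite-strand genes that were also counted overlap Meg3 and Miat, and they had at most 3 UMIs in a library, where a UMI is a molecule tagged once before amplification.

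The library kit copies RNA from its 3′ end, so the ends of the transcripts bear on what is counted. The last 60 bases of 7 annotated transcripts of 6 of these genes are shown, 5′ to 3′ on the RNA's own strand, with the cleavage signal AATAAA in capitals where it occurs.
Malat1-201, chr19:5795690-5795749: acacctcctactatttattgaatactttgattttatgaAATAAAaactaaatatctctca
Neat1-201 (long form), chr19:5824708-5824767: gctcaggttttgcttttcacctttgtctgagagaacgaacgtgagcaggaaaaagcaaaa
Neat1-202 (short form), chr19:5842307-5842366: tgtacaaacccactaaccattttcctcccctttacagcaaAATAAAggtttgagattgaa
Meg3-209, chr12:109571667-109571726: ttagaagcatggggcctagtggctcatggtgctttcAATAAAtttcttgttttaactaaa
Miat-205, chr5:112213228-112213287: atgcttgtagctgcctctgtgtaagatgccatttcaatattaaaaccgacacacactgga
Mir124a-1hg-201, chr14:64593902-64593961: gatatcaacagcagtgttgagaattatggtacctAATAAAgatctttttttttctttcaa
Mir124-2hg-201, chr3:17799528-17799587: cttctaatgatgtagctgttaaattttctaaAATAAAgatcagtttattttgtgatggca
The signal was present in 5 of the 7 ends, against 27.2% of the last 60 bases of all 141515 annotated transcripts searched. The annotated Malat1 end is among the 5, although its mature end is not made by ordinary polyadenylation, as said above. No end of Snhg11 is shown. It was found near the end of the short form of Neat1 (3004 bases) and not in these letters of the long form (20771 bases) or of Miat. A gene count cannot tell the Neat1 forms apart. Runs of A inside a transcript can also be copied by such a kit, and the longest run in any annotated transcript was 31 bases in Mir124-2hg, 16 in Meg3, 12 in Malat1, 9 in Snhg11, 7 in Neat1, 5 in Mir124a-1hg and 4 in Miat. Which site gave the counted UMIs was not tested.

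Kept were barcodes that reached 500 UMIs and 300 genes with no more than 15% of UMIs from mitochondrial genes (mt-), 2323 in the MSC-sEV library and 1347 in the PBS library, with medians of 2920 and 2601 UMIs and of 2.60% and 5.07% mt- UMIs. The libraries shared 0 barcodes. Both were labelled as retinal immune cells, but rod-like clusters, defined by rod photoreceptor markers, held 48.3% of the MSC-sEV barcodes and 50.4% of the PBS barcodes. Leukocyte clusters held 703 MSC-sEV barcodes and 40 PBS barcodes, and the 40 were all microglia-like. At least 1 UMI of the rod genes Sag or Rp1 was present in 94.2% of MSC-sEV barcodes and 99.7% of PBS barcodes, including 616 and all 40 of the barcodes in leukocyte clusters. Rod RNA was therefore counted in droplets of other cell types, and levels of the rod-rich miR-124 hosts are read with that in mind.

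Together the 7 genes took 2.63% of the UMIs of kept MSC-sEV barcodes and 3.04% of those of PBS barcodes, nearly all of it Malat1. Malat1 stood at 24969 CPM (UMIs per 1000000 UMIs of the same barcodes) in the MSC-sEV library and 28680 CPM in the PBS library, and it was seen in 99.7% and 99.6% of barcodes. Mir124-2hg had 548 CPM in MSC-sEV and 1067 CPM in PBS, and Mir124a-1hg had 450 CPM and 452 CPM in the same order. Neat1 had 211 CPM in MSC-sEV and 22.9 CPM in PBS, a ratio of 9.21 (7.94 to 10.7). Among the 6 genes with UMIs it was the only one at least 2-fold higher in the MSC-sEV library as a whole, where 20.5% of 14380 measured genes were; a gene is called measured with at least 20 UMIs over both sides. Meg3 had 70.9 CPM in MSC-sEV and 123 CPM in PBS. Snhg11, with 21.3 CPM in MSC-sEV and 57.5 CPM in PBS, was the only one at least 2-fold lower, against 10.7% of measured genes.

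Miat had 0 UMIs in every barcode of both files, before and after the filter. At 3 UMIs per library, a count of 0 allows up to 0.181 CPM in kept MSC-sEV barcodes and 0.373 CPM in PBS barcodes. These limits hold only if Miat RNA could be counted under the annotation used for counting. Whether it could was not settled, so the 0 is not read as absence from the retina. The opposite-strand gene over Miat, Gm26953, also had 0 UMIs in both libraries. No level of Miat could be set beside another, and it is left out from here on.

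UMIs of Snhg11 and Meg3 came from few barcodes in both libraries, as did the 184 UMIs of Neat1 in PBS, which were seen in 98 barcodes. The 10 barcodes with the most Snhg11 held 77.9% of its UMIs in MSC-sEV and 70.1% in PBS, and for Meg3 the shares were 40.3% and 39.2%. For Malat1 they were 5.84% and 8.83%, for Mir124a-1hg 6.07% and 9.37%, for Mir124-2hg 6.85% and 11.2%, and for Neat1 10.9% and 31.0%, MSC-sEV first. Sums of Snhg11 and Meg3 over a whole library thus lean heavily on a handful of cells. In rod-like barcodes their few UMIs were spread more evenly. There 37 UMIs of Meg3 lay in 33 MSC-sEV barcodes and 56 in 47 PBS barcodes. For Snhg11 there were 8 UMIs in 8 MSC-sEV barcodes and 22 in 20 PBS barcodes.

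**Figure D1:**
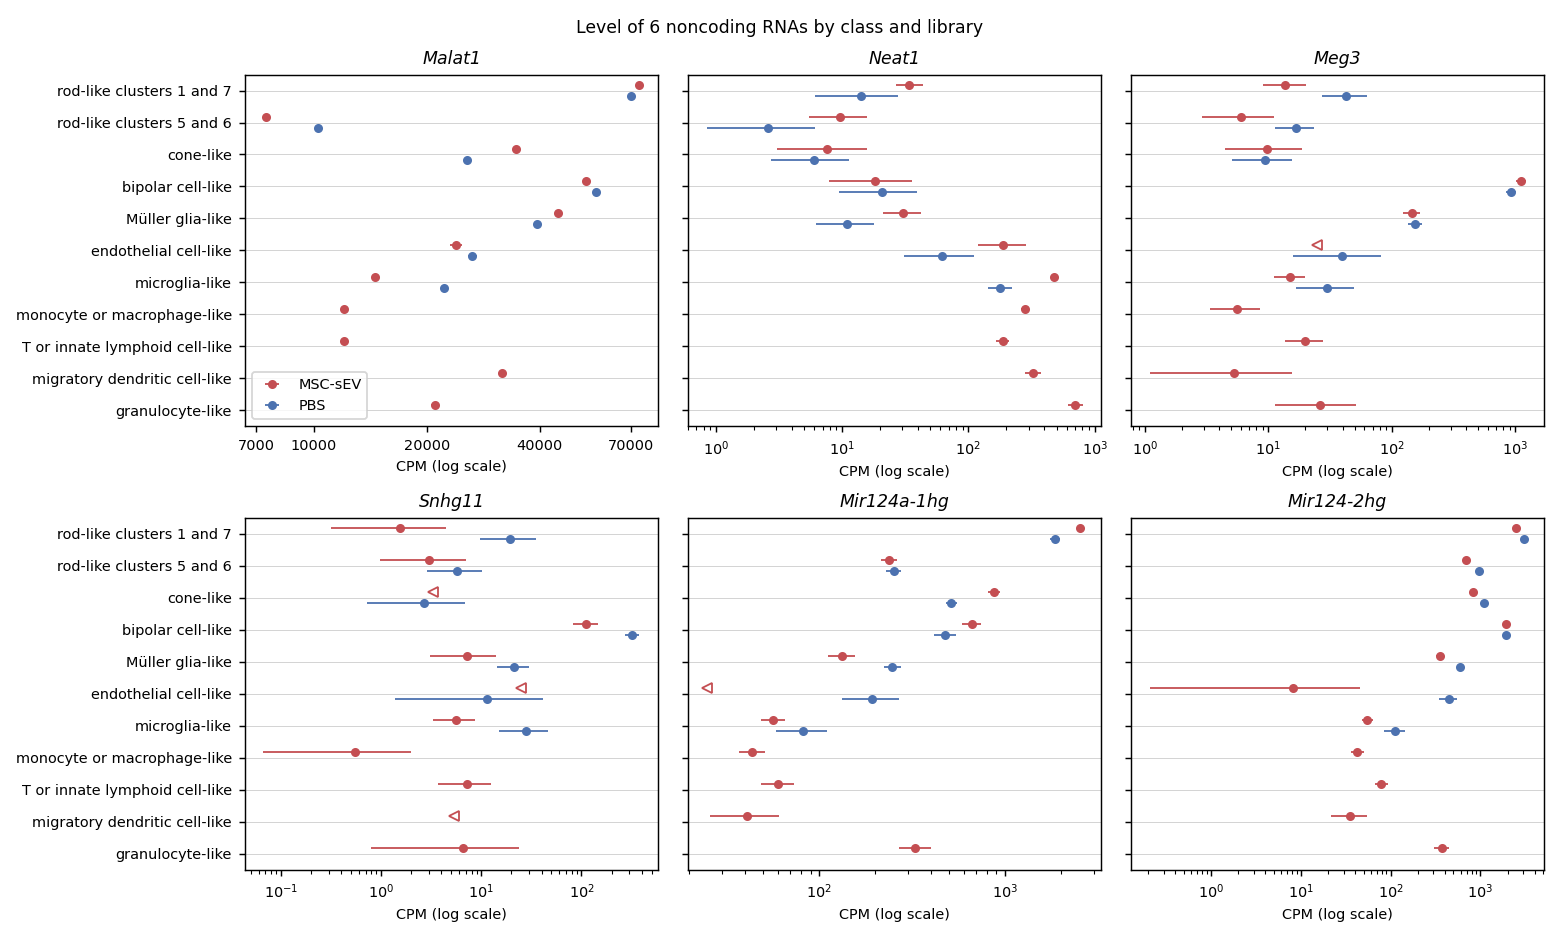
Level of 6 of the genes (CPM, log scale) in each named class of each library, MSC-sEV above PBS; points are summed UMIs, bars are exact Poisson 95% intervals, and open triangles mark the level 3 UMIs would give where none was counted. Malat1 separates the rod-like clusters, Neat1 is highest in leukocyte classes, Meg3 and Snhg11 in bipolar cell-like barcodes among these named classes, and the miR-124 hosts in photoreceptor and bipolar classes.

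Among the named classes Malat1 was highest in bipolar cell-like barcodes and lowest in a leukocyte class in both libraries. In the MSC-sEV library its order over named classes ran from 53351 CPM in bipolar cell-like barcodes through 44830 in Müller glia-like, 43255 in rod-like, 34609 in cone-like, 31722 in migratory dendritic cell-like, 23893 in endothelial cell-like, 21014 in granulocyte-like and 14572 in microglia-like to 12046 in monocyte or macrophage-like and 12030 in T or innate lymphoid cell-like barcodes. Only the last pair had overlapping intervals. In the PBS library the order was 56630 CPM in bipolar cell-like, 39418 in Müller glia-like, 26466 in endothelial cell-like, 25573 in cone-like, 23788 in rod-like and 22214 in microglia-like barcodes, with endothelial and cone-like values overlapping. Rod-like barcodes stood above cone-like barcodes in MSC-sEV and below them in PBS, and their value is an average over unlike clusters, described further on. Rod-like clusters 5 and 6 alone, at 7461 CPM in MSC-sEV and 10217 in PBS, stood below every leukocyte class of their library.

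Neat1 was highest in leukocytes in both libraries. In MSC-sEV it had 702 CPM in granulocyte-like barcodes (611 to 802), 478 in microglia-like, 327 in migratory dendritic cell-like, 279 in monocyte or macrophage-like, 190 in endothelial cell-like and 187 in T or innate lymphoid cell-like barcodes. Granulocyte-like and microglia-like barcodes overlapped no neighbour in that order, and the others did. Müller glia-like barcodes had 30.3 CPM, rod-like 22.9, bipolar cell-like 18.2 and cone-like 7.65, with overlaps along the whole run. In PBS the order was 179 CPM in microglia-like (144 to 220), 62.3 in endothelial cell-like, 20.8 in bipolar cell-like, 11.0 in Müller glia-like, 5.99 in cone-like and 5.23 in rod-like barcodes, and all below microglia overlapped. Microglia-like barcodes held 44.5% of all Neat1 UMIs in MSC-sEV and 48.9% in PBS. Thinned to 1000 UMIs a barcode, Neat1 was seen in 40.8% of MSC-sEV microglia-like barcodes and 25% of PBS ones, and in 2.12% and 0.692% of rod-like barcodes.

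Meg3 and Snhg11 were highest in bipolar cell-like barcodes among the named classes. The highest levels of both were in cluster 13, which stays unnamed and has 8 MSC-sEV and 3 PBS barcodes led by Lamp5, Tfap2b and Slc6a9. There Meg3 had 3637 CPM in MSC-sEV and 2510 in PBS, and Snhg11 had 2917 and 3036 CPM. Bipolar cell-like barcodes came next for Meg3, at 1109 CPM in MSC-sEV (1013 to 1212) and 926 in PBS (838 to 1022). The unnamed cluster 4 followed at 195 CPM in MSC-sEV and 155 in PBS, overlapping Müller glia-like barcodes at 145 and 154 CPM. In rod-like barcodes Meg3 had 37 UMIs, 10.2 CPM, in MSC-sEV and 56 UMIs, 22.5 CPM, in PBS.

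The bipolar cell-like clusters differed in these RNAs. Cluster 12, led by Trpm1, Pcp2 and Pcp4 (15 MSC-sEV and 18 PBS barcodes), had 1957 CPM of Meg3 in MSC-sEV and 1146 in PBS, and no UMI of Snhg11 in either library. Cluster 10, led by Scgn, Cck and Grik1 (26 and 28 barcodes), had 693 CPM of Meg3 in MSC-sEV and 709 in PBS, and 166 and 640 CPM of Snhg11. Snhg11 was therefore seen in one bipolar cluster and not in the other, at these depths, in both libraries. Outside bipolar cells and cluster 13 no named class had more than 27.8 CPM of Snhg11 in either library.

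The miR-124 host transcripts were highest in photoreceptor and bipolar classes. Mir124a-1hg was highest in rod-like barcodes, at 1489 CPM in MSC-sEV and 617 CPM in PBS. Cone-like barcodes had 875 CPM in MSC-sEV and 515 in PBS, and bipolar cell-like barcodes 665 and 478 CPM, which overlapped cone-like barcodes in PBS only. Mir124-2hg was highest in bipolar cell-like barcodes, at 1915 CPM in MSC-sEV and 1931 in PBS. Rod-like barcodes had 1668 CPM of it in MSC-sEV and 1437 in PBS, and cone-like barcodes 825 and 1096 CPM, with no overlap between any of these classes. The rod-like values average unlike clusters: in rod-like clusters 1 and 7 both hosts stood above bipolar cell-like barcodes, and in clusters 5 and 6 below them, in both libraries.

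In leukocyte clusters both hosts stood in a ratio to rod transcripts that lay within the wide range of the rod-like clusters. Per 1000 UMIs of an 18-gene rod list, MSC-sEV leukocyte clusters had 19.5 UMIs of Mir124a-1hg and 20.7 of Mir124-2hg, and MSC-sEV rod-like barcodes had 17.1 and 19.2. In PBS the leukocyte clusters had 15.7 and 21.5, above the 6.06 and 14.1 of all PBS rod-like barcodes. PBS rod-like clusters 1 and 7 had 23.2 and 37.7, and PBS rod-like clusters 5 and 6 had 2.32 and 8.95. The same pairs of clusters in MSC-sEV had 35.2 and 34.5, and 2.28 and 6.64. Mir124a-1hg was seen in 40.8% of MSC-sEV microglia-like barcodes at a median of 14858 UMIs and in 66.7% of rod-like barcodes at a median of 2568 UMIs; thinned to 1000 UMIs these shares were 8.46% and 57.6%. In PBS the thinned shares were 7.50% and 37.0%. Whether the host UMIs of leukocytes came from rods was not tested. Endothelial cell-like barcodes had 0 UMIs of Mir124a-1hg in MSC-sEV (10 barcodes) and 34 in PBS (21 barcodes), where the rod list had 610 CPM and 21297 CPM.

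Rod-like barcodes fell into 2 kinds that differed in Malat1 and the miR-124 hosts. Clusters 1 and 7 (680 MSC-sEV and 226 PBS barcodes) met 5 and 7 of 13 rod markers, with Rpgrip1, Gm19667 and Tmem108 and none of those markers among the 10 leading genes of each. Clusters 5 and 6 (443 and 453 barcodes) met 12 and 13 markers, with Gnat1, Rbp3 and Impg1, genes of the outer segment and the matrix around it, among the leading genes of each. The clusters were drawn from the expression of these same barcodes. The 7 genes, the ribosomal protein genes and the mt- genes were left out of that step but genes that vary with them were not, so the contrast is a description.

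In MSC-sEV, Malat1 had 73512 CPM in clusters 1 and 7 and 7461 CPM in clusters 5 and 6, a ratio of 9.85 (9.67 to 10.0). In PBS it had 69951 CPM in clusters 1 and 7 and 10217 CPM in clusters 5 and 6, a ratio of 6.85 (6.73 to 6.96). Clusters 5 and 6 were not alike in summed level. Malat1 had 3810 CPM in cluster 5 and 10999 in cluster 6 of MSC-sEV, and 6886 and 12652 in PBS. Their median shares per barcode were closer, at 0.304% and 0.234% in MSC-sEV and 0.535% and 0.693% in PBS. Per barcode, the median share of UMIs that were Malat1 was 7.61% in clusters 1 and 7 (quartiles 5.76% and 9.64%) and 0.30% in clusters 5 and 6 (0.164% and 0.550%) in MSC-sEV. In PBS the medians were 7.26% (4.84% and 9.86%) and 0.539% (0.312% and 1.01%). The groups hardly overlapped: 0.677% of MSC-sEV and 4.86% of PBS barcodes in clusters 5 and 6 exceeded the lower quartile of clusters 1 and 7. Over all rod-like barcodes, 60.5% in MSC-sEV and 36.7% in PBS had at least 3% Malat1, 34.6% and 50.5% had less than 1%, and only 4.90% and 12.8% lay between.

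Mir124a-1hg had 2546 CPM in clusters 1 and 7 and 238 CPM in clusters 5 and 6 of MSC-sEV, a ratio of 10.7 (9.66 to 11.9), and 1863 and 251 CPM in PBS, a ratio of 7.42 (6.65 to 8.28). Cluster 5 alone had 102 CPM of it and cluster 6 alone 370 CPM in MSC-sEV, and 182 and 302 CPM in PBS. Mir124-2hg had 2494 and 692 CPM in MSC-sEV, a ratio of 3.61 (3.38 to 3.85), and 3029 and 969 CPM in PBS, a ratio of 3.13 (2.93 to 3.34). The hosts of one microRNA thus differed in the size of the step in both libraries. Neat1 had 67 UMIs in clusters 1 and 7 and 16 in clusters 5 and 6 of MSC-sEV, a ratio of 3.54 (2.03 to 6.54), and 8 and 5 UMIs in PBS. Meg3 had 27 and 10 UMIs in MSC-sEV, a ratio of 2.28 (1.07 to 5.28), and 24 and 32 UMIs in PBS, a ratio of 2.55 (1.44 to 4.47). All measured members were at least 2-fold higher in clusters 1 and 7, against 26.4% of measured genes in MSC-sEV and 20.7% in PBS. At least 2-fold lower were 3.54% and 3.01%.

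**Figure D2:**
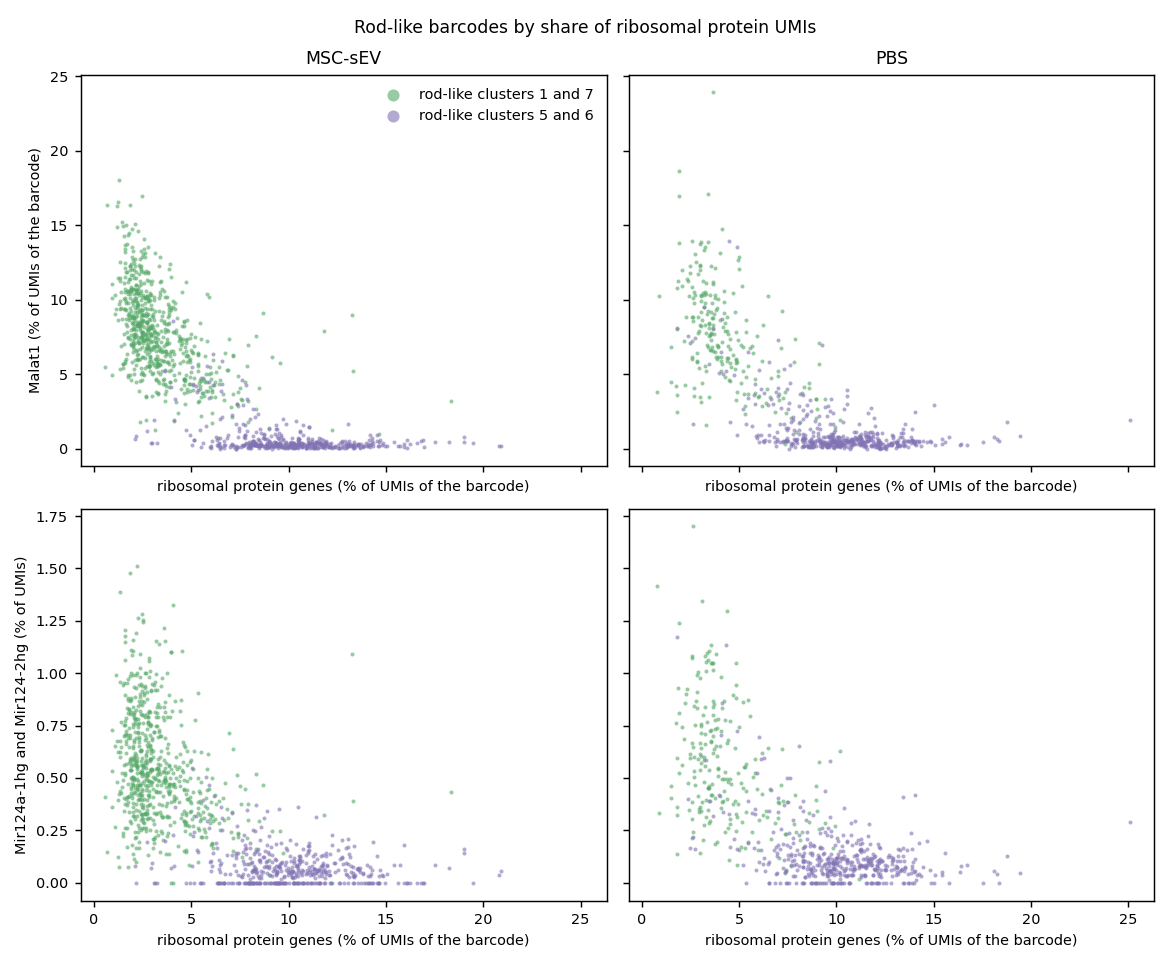
Share of UMIs that were Malat1 (top) and the 2 miR-124 hosts together (bottom) against the share from ribosomal protein genes (percent of the barcode's UMIs) for each rod-like barcode with a UMI of Sag or Rp1; clusters 1 and 7 are green, clusters 5 and 6 purple. Barcodes with little ribosomal protein RNA carry most Malat1 in both libraries, and those above 8% sit near the bottom.

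Ribosomal protein messenger RNA, which is cytoplasmic, ran the other way. Clusters 1 and 7 had a median of 2.82% ribosomal protein UMIs in MSC-sEV and 3.79% in PBS, and clusters 5 and 6 had 9.97% and 10.0%. Along this share Malat1 stood at 91403 CPM under 3% ribosomal protein UMIs, 67504 from 3% to 5%, 35369 from 5% to 8% and 6341 above 8% in MSC-sEV. In PBS the same ranges gave 97198, 81410, 33591 and 8372 CPM. Across rod-like barcodes Spearman's coefficient between the Malat1 share and the ribosomal share was -0.84 in MSC-sEV (n = 1123) and -0.76 in PBS (n = 679), and for Mir124a-1hg it was -0.73 and -0.62. Both shares have the barcode's UMIs as denominator, and no p is given. The ranges gave Mir124-2hg levels of 2858, 2504, 1444 and 660 CPM in MSC-sEV and 3976, 3443, 1782 and 901 CPM in PBS, so the order held for each of the 3 RNAs in each library.

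Median depth of the pooled pairs of clusters differed little and in opposite directions, and the mitochondrial share was lower in clusters 1 and 7. Median UMIs were 2709 in MSC-sEV and 2215 in PBS in clusters 1 and 7, and 2422 and 2697 in clusters 5 and 6. Single clusters differed more, with 2876 and 2700 in cluster 1 and 1910 and 1854 in cluster 7. Cluster 5 had 2135 and 2402.5, and cluster 6 had 6136 and 6574. The 80 MSC-sEV barcodes of cluster 6 held 841418 of the 1657097 UMIs summed over clusters 5 and 6. Median mt- shares were 1.04% and 3.05% in clusters 1 and 7, and 4.81% and 5.59% in clusters 5 and 6. The rod list took 7.24% and 8.03% of UMIs in clusters 1 and 7, and 10.4% and 10.8% in clusters 5 and 6.

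**Figure D3:**
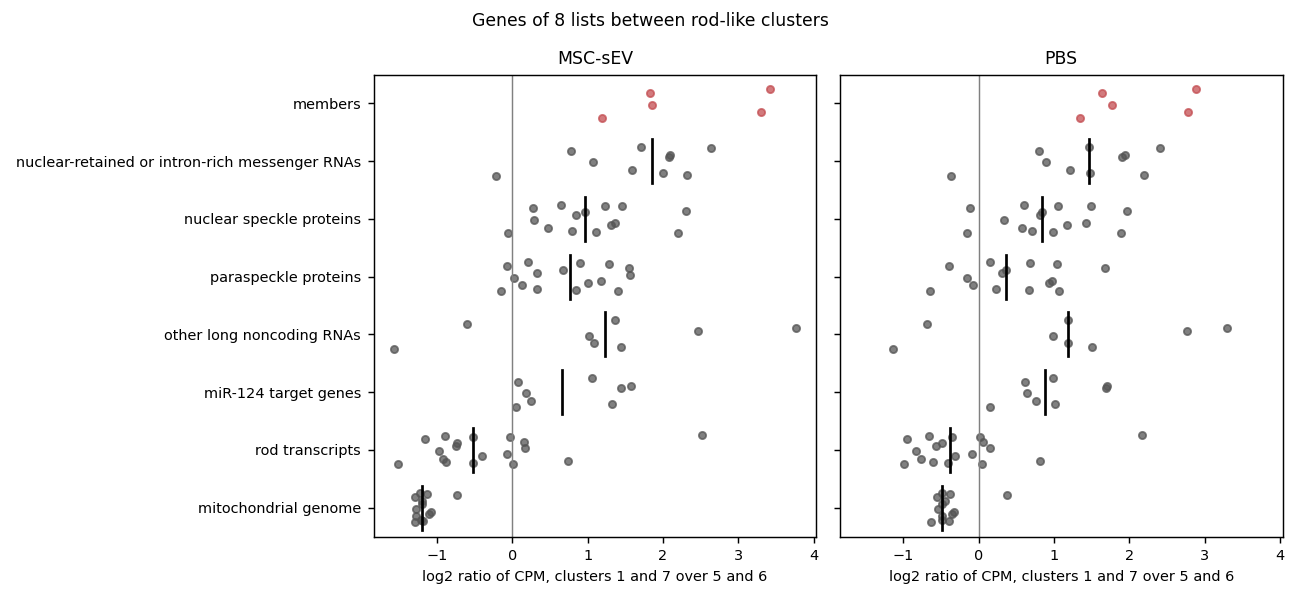
Log2 ratio of CPM, clusters 1 and 7 over clusters 5 and 6, for each measured gene of 8 lists in the MSC-sEV (left) and PBS (right) library; each point is a gene, black bars are list medians, and the noncoding genes described here are red, with no median. Points right of 0 are higher in clusters 1 and 7, where nuclear-retained messenger RNAs sit mostly above 1 and mitochondrial genes below 0 except mt-Nd6 in PBS.

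Messenger RNAs known to be retained in the nucleus or to keep introns went with Malat1. Of 10 measured, 8 in MSC-sEV and 7 in PBS were at least 2-fold higher in clusters 1 and 7 and none was 2-fold lower, with a median log2 ratio of 1.86 and 1.47, beside medians over all measured genes of 0.47 and 0.34. The 4 with most UMIs had log2 ratios of 1.07 in MSC-sEV and 0.80 in PBS (Ddx5, an RNA helicase), 0.78 and 0.89 (Rbm39, a splicing factor), -0.21 and -0.37 (Atp2b1, a calcium pump) and 1.59 and 1.46 (Ddx17, another helicase). Proteins of nuclear speckles, where Malat1 resides, had 7 of 15 genes past 2-fold in MSC-sEV and 6 of 15 in PBS, all higher, with medians of 0.97 and 0.85. Son, a scaffold of the speckle, had 0.97 and 0.99, Srrm2 0.85 and 0.85, Pnisr 2.31 and 1.90 and the splicing factor Srsf3 -0.06 and -0.12. Proteins of paraspeckles, the bodies built on Neat1, had 6 of 16 past 2-fold in MSC-sEV and 3 of 15 in PBS, with medians of 0.76 and 0.37, and in PBS both stood near the values over all genes (20.7% and 0.34); Sfpq had 1.01 and 0.98, Hnrnpk 0.03 and -0.15 and Matr3 0.13 and 0.15. Another noncoding RNA, Kcnq1ot1, the antisense RNA of an imprinted region, had 3.77 in MSC-sEV and 3.30 in PBS. Malat1 had 3.30 and 2.78, and Mir124a-1hg 3.42 and 2.89.

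Not every noncoding RNA went this way. Of 8 measured on the list of other long noncoding RNAs, 6 in MSC-sEV and 5 in PBS were at least 2-fold higher in clusters 1 and 7, and Epb41l4aos was lower in both, at -1.57 and -1.13. The host genes of small nucleolar RNAs were split: Snhg20 had log2 ratios of 2.41 in MSC-sEV and 1.55 in PBS, Snhg6 had -1.51 and -0.76, and Snhg12 had -0.77 and -0.92. Ribosomal protein genes went the other way: 80 of 88 ribosomal protein genes in MSC-sEV and 48 of 86 in PBS were at least 2-fold lower in clusters 1 and 7, out of 329 and 244 such genes in all, with medians of -1.37 and -1.03. Of 13 mt- genes, 12 were 2-fold lower in MSC-sEV and 0 in PBS, with medians of -1.20 and -0.48. Rod transcripts had a median of -0.52 and -0.38, with Sag, an arrestin, at 0.15 and -0.09, Gnat1, the rod transducin subunit, at -0.97 and -0.48 and Rp1, of the axoneme, at 0.74 and 0.81. No gene of the Dlk1-Dio3 list, the neighbours of Meg3, was measured in rods.

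Known targets of miR-124 were counted in the same contrast. Of 8 measured targets, 4 in MSC-sEV and 3 in PBS were at least 2-fold higher in clusters 1 and 7 and none was 2-fold lower, with medians of 0.65 and 0.87, beside 26.4% and 20.7% of all genes higher, 3.54% and 3.01% lower and all-gene medians of 0.47 and 0.34. Ptbp1, the splicing repressor that miR-124 lowers in neurons, had log2 ratios of 1.32 and 1.69, Iqgap1 1.58 and 1.71, Vamp3 1.44 and 0.98, Ezh2 0.25 and 0.61 and Rdx 0.18 and 0.15. The counts are of host transcripts, not of mature miR-124. The splicing factors that Miat binds were also measured: Srsf1 had 1.46 and 1.49, Qk 1.55 and 1.39 and Sf1 0.57 and 0.54. Leukocyte genes in rod-like barcodes, a sign of mixed RNA, were past 2-fold in 0 of 10 in MSC-sEV and 1 of 7 in PBS, higher in clusters 1 and 7.

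**Figure D4:**
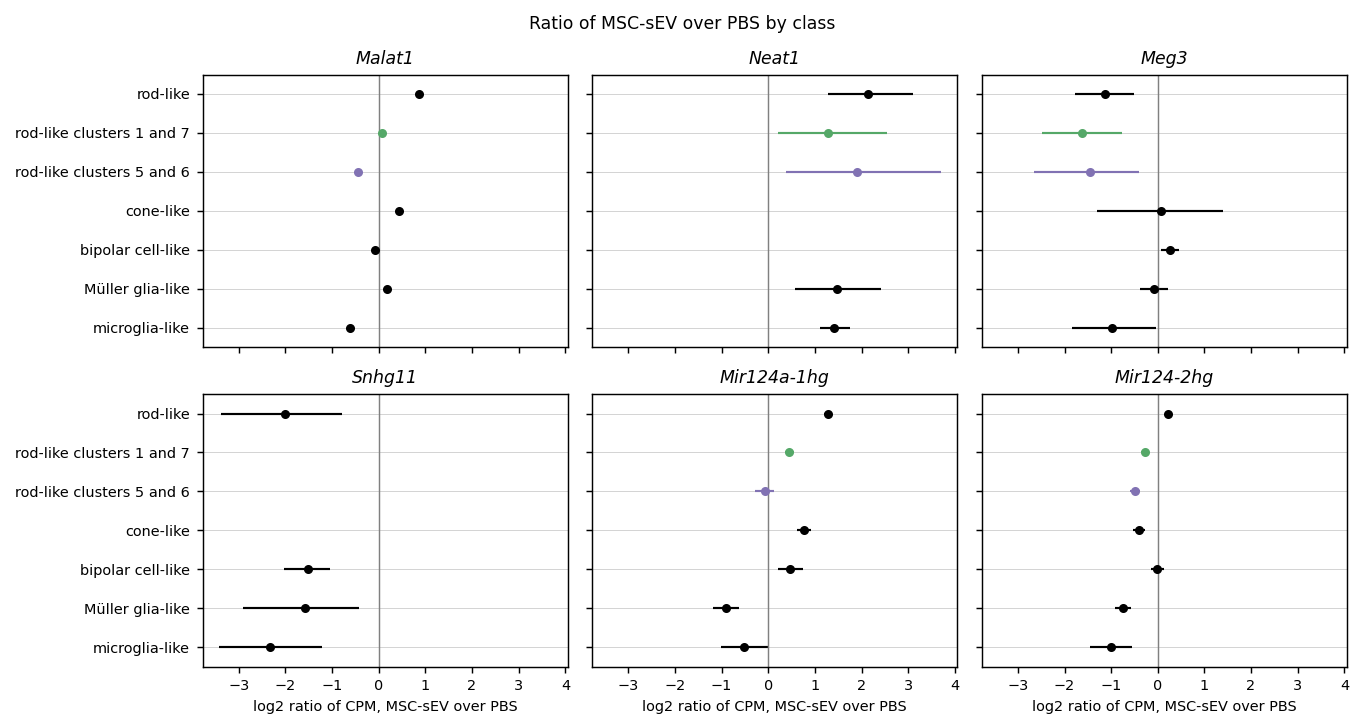
Log2 ratio of CPM, MSC-sEV over PBS, by class, with exact 95% intervals for counting error; values right of 0 are higher in MSC-sEV, genes under 20 UMIs in a class are not drawn, and green and purple mark the rod-like clusters. Neat1 lies right of 0 and Snhg11 left of 0 in every class drawn, and Malat1 in rod-like barcodes is at 0.072 in clusters 1 and 7 and -0.45 in clusters 5 and 6.

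Across the libraries, Malat1 in rod-like barcodes had 43255 CPM in MSC-sEV and 23788 CPM in PBS, a ratio of 1.82 (1.80 to 1.84). Clusters 1 and 7 made up 60.6% of the rod-like barcodes in MSC-sEV and 33.3% in PBS. Within clusters 1 and 7 the Malat1 ratio was 1.05 (1.04 to 1.06), and within clusters 5 and 6 it was 0.730 (0.714 to 0.747). The difference over all rod-like barcodes was therefore far smaller inside clusters 1 and 7 and had the opposite direction inside clusters 5 and 6. Mir124a-1hg had a ratio of 2.41 (2.28 to 2.55) over rod-like barcodes, 1.37 (1.28 to 1.46) within clusters 1 and 7 and 0.946 (0.826 to 1.08) within clusters 5 and 6. Mir124-2hg had 1.16 (1.11 to 1.21) over rod-like barcodes, 0.823 (0.779 to 0.870) within clusters 1 and 7 and 0.714 (0.662 to 0.769) within clusters 5 and 6, so its direction turned. With 1 library per group, a difference in cluster shares and one between libraries cannot be told apart.

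Neat1 and Meg3 kept their direction in both kinds of rod-like barcode. Neat1 had 83 UMIs in MSC-sEV and 13 in PBS over all rod-like barcodes, a ratio of 4.39 (2.43 to 8.59), with 2.41 (1.16 to 5.82) in clusters 1 and 7 and 3.71 (1.3 to 13) in clusters 5 and 6. Meg3 was 2.20-fold lower in MSC-sEV (1.43 to 3.43) over all rod-like barcodes, 3.08-fold lower (1.70 to 5.55) in clusters 1 and 7 and 2.76-fold lower (1.32 to 6.29) in clusters 5 and 6. Snhg11 had 8 UMIs in MSC-sEV and 22 in PBS. Past 2-fold over rod-like barcodes were Neat1 and Mir124a-1hg, higher as were 13.4% of measured genes, and Meg3 and Snhg11, lower as were 1.29%. Within clusters 1 and 7, 9.59% of genes were 2-fold higher and 1.82% lower, and within clusters 5 and 6 5.09% and 2.29%; Neat1 and Meg3 were past 2-fold in both.

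The single clusters show how far this holds. The Malat1 ratio was 0.948 (0.931 to 0.964) in cluster 1, 1.04 (1.03 to 1.06) in cluster 7, 0.553 (0.529 to 0.578) in cluster 5 and 0.869 (0.847 to 0.893) in cluster 6. Mir124-2hg was lower in MSC-sEV in each of them, at 0.813, 0.816, 0.683 and 0.762 in the same order, and Mir124a-1hg was at 1.41, 1.21, 0.558 and 1.23. Past 2-fold in cluster 1, where 15.1% of genes were higher and 3.72% lower, were Neat1, at 2.18 (0.707 to 10.9) on 55 UMIs in MSC-sEV and 3 in PBS, an interval that includes no difference, and Meg3, 3.21-fold lower (1.23 to 7.54). In cluster 7 (7.64% and 3.37%) Meg3 was 3.14-fold lower (1.17 to 9.81), and in cluster 5 (7.49% and 3.36%) 5.63-fold lower (2.15 to 18.7). In cluster 6 (5.13% and 2.52%) no measured member was past 2-fold, and Meg3 had 5 UMIs in MSC-sEV and 4 in PBS.

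The share of barcodes in leukocyte clusters was also higher in MSC-sEV, as were some leukocyte genes in rod-like barcodes. Leukocyte clusters, with 348 CPM of Neat1 in MSC-sEV and 179 in PBS, held 30.3% of MSC-sEV barcodes and 2.97% of PBS barcodes. In rod-like barcodes the summed 10-gene leukocyte list stood at 731 CPM in MSC-sEV and 565 CPM in PBS. Of the 10 genes, 9 had a ratio above 1, and 4 were at least 2-fold higher, as were 13.4% of measured genes. At least 2-fold lower were 0 of the 10 and 1.29% of measured genes. The list had a median log2 ratio of 0.40, beside 0.28 over all measured genes. Single genes picked after seeing their values differed more. Cd74, the class II chaperone, had 259 UMIs in MSC-sEV and 4 in PBS, Lyz2, of myeloid cells, 214 and 25, and Arg1 118 and 0. The part of such RNA in the Neat1 level of rods was not tested.

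In microglia-like barcodes (201 in MSC-sEV and 40 in PBS) Neat1 had 478 CPM in MSC-sEV and 179 CPM in PBS, a ratio of 2.67 (2.16 to 3.34). Malat1 had 14572 and 22214 CPM, a ratio of 0.656 (0.643 to 0.670). The RNAs of speckles and paraspeckles, neighbours on chromosome 19, therefore differed in opposite directions in the same cells. Neat1 was past 2-fold higher with 13.1% of measured genes, and Snhg11, 5.02-fold lower on 18 and 14 UMIs, and Mir124-2hg, 2.01-fold lower, were past 2-fold lower with 6.31%. Rod transcripts in these barcodes stood at 3326 CPM in MSC-sEV and 5182 CPM in PBS.

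Müller glia-like barcodes (50 and 87) had Malat1 at a ratio of 1.14 (1.12 to 1.15) and Neat1, with 34 UMIs in MSC-sEV and 16 in PBS, at 2.77 (1.49 to 5.37), beside 10.6% of genes 2-fold higher. Snhg11 was 2.98-fold lower (1.34 to 7.49) on 8 and 31 UMIs, beside 4.76% lower. Mir124a-1hg was 1.88-fold lower (1.55 to 2.29) and Mir124-2hg 1.68-fold lower (1.49 to 1.90), while the rod list stood at 29215 CPM in MSC-sEV and 41004 CPM in PBS. Whether the host UMIs of glia came from rods was not tested.

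Cone-like barcodes (50 and 75) had no measured member past 2-fold, with 11.1% of genes higher and 2.20% lower. Malat1 had a ratio of 1.35 (1.33 to 1.37), Mir124a-1hg of 1.70 (1.54 to 1.88) and Mir124-2hg of 0.753 (0.690 to 0.821) there, so the miR-124 hosts went opposite ways in cones. In bipolar cell-like barcodes (41 and 46) Malat1 had 0.942 (0.925 to 0.959), Meg3 1.2 (1.05 to 1.37), Mir124a-1hg 1.39 (1.16 to 1.67) and Mir124-2hg 0.992 (0.900 to 1.09). Snhg11, 2.88-fold lower (2.06 to 4.07) on 49 and 139 UMIs, was the only member past 2-fold, with 3.45% of genes lower and 8.66% higher. In endothelial cell-like barcodes (10 and 21) Neat1 had 23 UMIs in MSC-sEV and 11 in PBS, a ratio of 3.04 (1.43 to 6.91), beside 9.25% of genes higher and 11.0% lower. Past 2-fold lower there were Mir124-2hg, with 1 UMI in MSC-sEV and 78 in PBS, 53.6-fold (9.34 to 2144), and Mir124a-1hg, whose 0 UMIs in MSC-sEV allow up to 24.7 CPM against 193 CPM in PBS; the rod list in these barcodes stood at 610 and 21297 CPM, as given above.

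The unnamed clusters 2 and 4 had Malat1 lower in MSC-sEV. In cluster 2 (176 MSC-sEV and 115 PBS barcodes) it had 7629 CPM in MSC-sEV and 15374 CPM in PBS, and Neat1 had 92.7 and 25.1 CPM. There Malat1 was 2.02-fold lower, Snhg11 3.09-fold lower, Mir124-2hg 2.94-fold lower and Neat1 3.69-fold higher, where 21.0% of genes were higher and 18.7% lower. In cluster 4 (162 and 281 barcodes, with medians of 817 and 713 UMIs) Malat1 had 14691 CPM in MSC-sEV and 38370 CPM in PBS, 2.61-fold lower (2.52 to 2.71), and was the only member past 2-fold, where 3.16% of genes were higher and 13.6% lower. The leukocyte list in cluster 2 stood at 28345 CPM in MSC-sEV and 12243 CPM in PBS and the rod list at 21980.5 and 83231 CPM, so the barcodes of this cluster differed in make-up between the libraries.

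**Figure D5:**
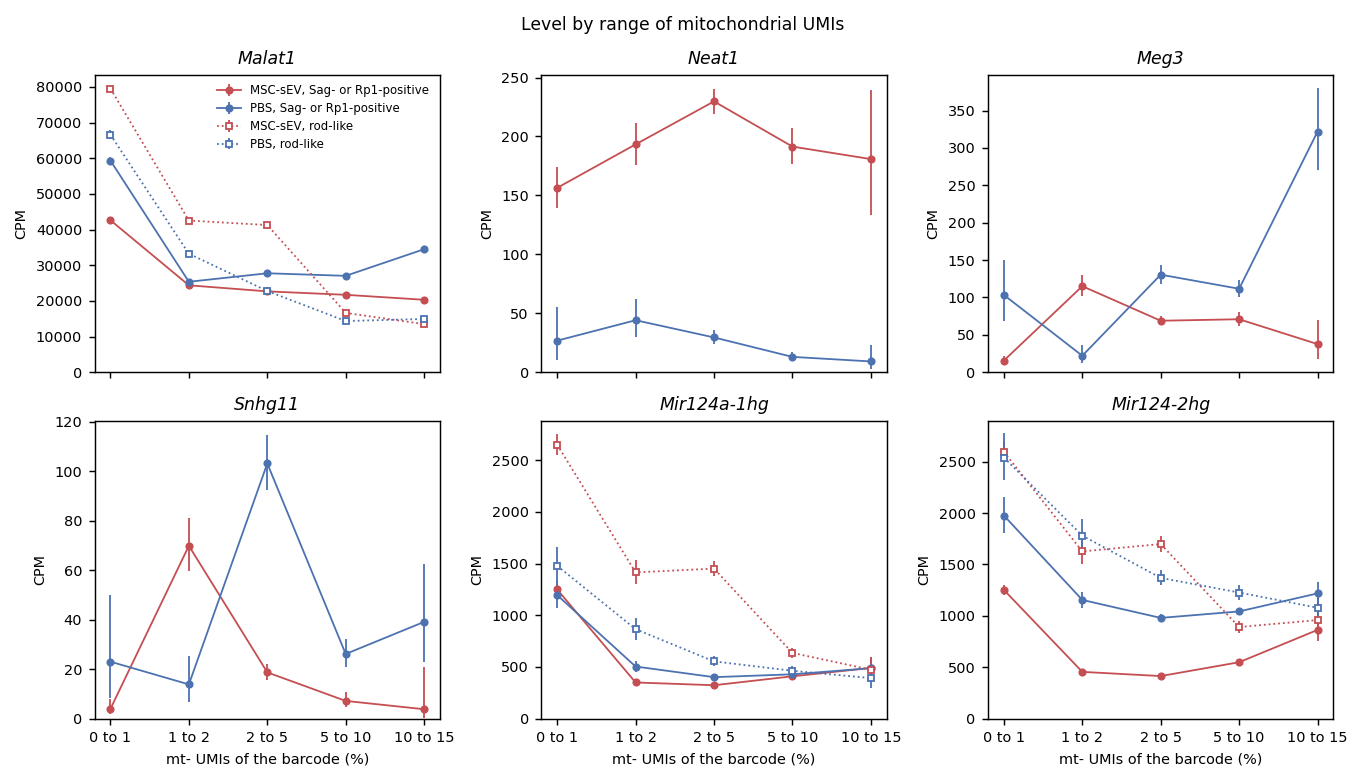
Level (CPM) in ranges of the barcode's mt- UMIs (percent), for barcodes with a UMI of Sag or Rp1 (filled circles, solid lines) and, for Malat1 and the miR-124 hosts, for rod-like barcodes (open squares, dotted lines); bars are exact Poisson 95% intervals. Malat1 and both hosts are highest under 1% in each set, and in rod-like barcodes Malat1 is lower above 5% than in any range below it.

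Among barcodes with a UMI of Sag or Rp1, Malat1 was highest where mitochondrial RNA was scarcest. In MSC-sEV it had 42613 CPM under 1% mt- UMIs, 24377 from 1% to 2%, 22677 from 2% to 5%, 21712 from 5% to 10% and 20320 from 10% to 15%. In PBS the same ranges gave 59331, 25364, 27750, 27029 and 34498 CPM. The step in this summed level lay at 1% in both libraries. Above it the summed level varied little in MSC-sEV and was somewhat higher in the last range in PBS. The median Malat1 share per barcode was lower above 5% than in either range from 1% to 5%. Over the same ranges it was 6.20%, 1.83%, 1.60%, 0.639% and 0.550% in MSC-sEV. In PBS the medians were 6.85%, 2.89%, 2.21%, 1.54% and 1.79%. Mir124a-1hg had 1249, 349, 322, 409 and 490 CPM over the ranges in MSC-sEV, and 1195, 504, 401, 428 and 487 CPM in PBS. Mir124-2hg had 1252, 454, 413, 548 and 863 CPM in MSC-sEV, and 1976, 1155, 980, 1043 and 1218 CPM in PBS. Both hosts were thus highest under 1%, lowest from 2% to 5% and higher again above 10% in both libraries.

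At no more than 2% mt- UMIs over more than 5% (895 over 543 barcodes in MSC-sEV, 241 over 683 in PBS), Malat1 had a ratio of 1.52 in MSC-sEV (1.5 to 1.53) and 1.23 in PBS (1.22 to 1.25). For Mir124a-1hg it was 1.84 (1.73 to 1.96) and 1.58 (1.44 to 1.73), and for Mir124-2hg 1.44 (1.36 to 1.52) and 1.29 (1.21 to 1.37). The median gene had a log2 ratio of 0.059 in MSC-sEV and 0.068 in PBS. Ranked by the smaller of the lower interval limits of the libraries, Mir124a-1hg stood at 53, Malat1 164 and Mir124-2hg 170 of 8365 genes. None of the 3 reached 2-fold.

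The neuronal RNAs and Neat1 gave no common order over all positive barcodes. Meg3 had 69.4 CPM at no more than 2% and 68.5 CPM above 5% in MSC-sEV, and 43.6 and 136 CPM in PBS, a log2 ratio of -1.64. Without cluster 13 the MSC-sEV log2 ratio was -1.06. Snhg11 had 176 UMIs at no more than 2% and 25 above 5% in MSC-sEV, a ratio of 5.75 (3.77 to 9.13), and its log2 ratio of 2.52 became 0.077 without cluster 13; in PBS it had 16 and 103 UMIs, a ratio of 0.588. Neat1 had a ratio of 0.925 in MSC-sEV and 3.14 (2.00 to 4.90) in PBS, with 39 and 47 UMIs, and without leukocyte clusters its log2 ratio was 1.11 in MSC-sEV and -0.0041 in PBS. In rod-like barcodes alone the log2 ratio of Neat1 was 2.05 in MSC-sEV, higher at low mt- share, and 1.12 in PBS. The PBS value rests on 1 UMI under 1%, 4 from 1% to 2%, 5 from 5% to 10% and 0 from 10% to 15%. With so few UMIs Neat1 was not measured there, and no direction is given for PBS. Past 2-fold were thus Snhg11 in MSC-sEV (8.05% of genes higher, 5.52% lower) and Neat1 and Meg3 in PBS (6.82% higher, 11.6% lower). In rod-like barcodes alone the log2 ratio was -0.82 for Snhg11 in MSC-sEV and -0.28 for Meg3 in PBS. There Snhg11 had 2 UMIs under 1%, 0 from 1% to 2%, 2 from 5% to 10% and 1 from 10% to 15%. These are also too few to call it measured or to give a direction.

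Within rod-like barcodes alone the relation of Malat1 to mitochondrial RNA was steeper, and the clusters moved with it. In MSC-sEV Malat1 had 79519, 42530, 41268, 16646 and 13496 CPM over the 5 ranges, of which clusters 1 and 7 made up 87.0%, 60.3%, 56.8%, 30.0% and 30.9% of barcodes. In PBS it had 66594, 33222, 22769, 14363 and 14943 CPM, and the shares were 73.1%, 45.2%, 37.2%, 20.3% and 17.5%. Within clusters 1 and 7, Spearman's coefficient between the mt- share and the Malat1 share of non-mt- UMIs was -0.29 in MSC-sEV (n = 679) and -0.37 in PBS (n = 226). Within clusters 5 and 6 it was -0.26 (n = 443) and -0.14 (n = 453). Over all positive barcodes it was -0.33 and -0.17, while that of Malat1 with the ribosomal share was -0.70 and -0.66.

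Other genes had larger steps. Higher at no more than 2% mt- UMIs were the hemoglobin genes Hbb-bt, Hba-a2, Hbb-bs and Hba-a1, then Cxcl12, Srgn, Gm19667, Ccl9, Mgp and H2-DMa. Lower were C130073E24Rik, Pcp2, Car8, Gpr179, Pcp4, Vstm2b, Cacna2d3, Trpm1, B3galt2 and 4930447C04Rik, among them Trpm1, Pcp2 and Gpr179 of ON bipolar cells. Pcp2 had 14.4 CPM at no more than 2% and 148 above 5% in MSC-sEV, and 28.4 and 571 CPM in PBS, the direction that Meg3 had in PBS. Gm19667, a leading gene of rod-like clusters 1 and 7, had 94.8 and 38.2 CPM in MSC-sEV and 83.2 and 28.4 CPM in PBS.

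The genes whose levels across 18 class-by-library profiles were most like each member are given by Pearson's r on log2(CPM + 10), over 10065 genes. Malat1 was nearest to Letm2 (0.902), Pabpn1 (0.882) and Leng8 (0.870), and these were the lowest values of any member. Neat1 was nearest to Syk (0.975), Ccdc88b (0.974) and Arrdc1 (0.974), and Meg3 to Atp2b2 (0.984), Auts2 (0.962) and Mapt (0.953). Snhg11 was nearest to Rgs11 (0.932), Cep112 (0.923) and Trpm1 (0.916), Mir124a-1hg to Dlg4 (0.975), Gpsm1 (0.971) and Plcd3 (0.965), and Mir124-2hg to Plk5 (0.988), Snap25 (0.979) and Otx2 (0.978). Profiles of one library share its free RNA and several share a class, so these are descriptions.

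Barcode by barcode, Malat1 and the miR-124 hosts went together. In positive barcodes thinned to 1000 UMIs, Spearman's coefficient of Malat1 with Mir124a-1hg was 0.69 in MSC-sEV (n = 1882) and 0.48 in PBS (n = 1018), and with Mir124-2hg 0.55 and 0.40. Mir124-2hg was seen in 81.0% of MSC-sEV barcodes with a UMI of Mir124a-1hg and in 24.9% of those without, and in 77.1% and 51.3% of PBS barcodes. Malat1 with Neat1, its neighbour on chromosome 19, gave -0.02 in MSC-sEV and 0.08 in PBS over all classes together. After thinning both were seen in only 204 and 24 of these barcodes, so the coefficients say little of a tie inside a class. In MSC-sEV rod-like barcodes Neat1 was higher in the Malat1-rich clusters 1 and 7, at a ratio of 3.54 (2.03 to 6.54). Coefficients inside single classes were not computed for this pair.

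Members just inside and just outside the mitochondrial limit differed in no steady way. At 12% to 15% mt- UMIs Malat1 had 16210 CPM in MSC-sEV (64 barcodes) and 34373 in PBS (77 barcodes), and at 15% to 20%, which the filter removed, 23869 (61 barcodes) and 28938 (68 barcodes). Snhg11 had 0 UMIs inside and 81 outside in MSC-sEV, and 7 and 3 in PBS.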

How the data were processed

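The authors deposited UMI counts per gene and barcode for 1 library per group, made with a droplet 3′ kit (version 3) and Cell Ranger 3.0.2 on mm10, per the labels' protocols. Whether introns were counted is not given in the sources used here. The members and gene lists were chosen with earlier results of these data known. Totals over all 2593 MSC-sEV and 1676 PBS barcodes were 16987131 and 8439740 UMIs. Kept barcodes of both libraries were clustered with scanpy 1.11.5 (2000 variable genes without the members, mt-, ribosomal and sex-linked genes, 30 components, 20 neighbours, Leiden resolution 1.0), which gave 17 clusters. A cluster was named from markers only with at least 3 detected, each in at least 20% of its barcodes and 2-fold above the rest. Scrublet called 6 MSC-sEV barcodes (0.258%) and 3 PBS barcodes (0.223%), none was removed, and the alternative leaves out the 2% with the highest scores. CPM is 1000000 times the gene's UMIs over all UMIs of the barcodes summed. Intervals are exact, Poisson for levels and conditional binomial for ratios. The ratio interval was tried on simulated Poisson counts without variation between barcodes. That checks the calculation and says nothing of the spread between cells. There was no test between groups. Coordinates and transcripts came from GENCODE M21 on GRCm38, which matched 31011 of 31053 genes. Named besides the members are, per list, up to 4 measured genes with most UMIs; the 3 genes most like each member among genes with at least 200 UMIs; and the 10 highest and 10 lowest by mt- range with at least 50 UMIs per library. Cd74, Lyz2, Arg1, Ptbp1, Epb41l4aos, Snhg20 and the leading genes of clusters were named after their values were seen. For some genes that the rule names, values are not reported here. Genes of the lists that the files do not hold under those symbols were not analysed here. Alternatives changed the denominator, weights, depth, filters, doublets, definition of positive barcodes and clustering.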

Additional observations from a re-analysis of the deposited data

Results flagged for a closer look

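Of the 7 noncoding RNAs, 4 had a ratio of MSC-sEV over PBS whose direction differed between cell classes, with intervals for counting error that lie on opposite sides of no difference. Malat1 had a log2 ratio of 0.86 in rod-like barcodes and -0.61 in microglia-like barcodes. Meg3 had 0.26 in bipolar cell-like barcodes and -1.14 in rod-like barcodes. Mir124a-1hg had 1.27 in rod-like barcodes and -0.91 in Müller glia-like barcodes. Mir124-2hg had 0.22 in rod-like barcodes and -1.01 in microglia-like barcodes. The difference between classes was not tested, since each group is 1 library. For Malat1 and Mir124a-1hg the rod-like direction was not present in the sum of clusters 5 and 6, and for Mir124-2hg it was not present inside clusters 1 and 7 or clusters 5 and 6, as given above. The part of free rod RNA in the host levels of glia and microglia was not tested.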

How the results depend on the processing

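Of 286 recomputed log2 ratios, 263 kept the sign of the value reported. The low over high mt- log2 ratio of Malat1, 0.60 in MSC-sEV and 0.30 in PBS, was 0.51 and 0.21 without mt- UMIs in the denominator, 0.55 and 0.21 also without ribosomal and member UMIs, 1.15 and 0.92 with barcodes weighted equally, 1.27 and 1.05 after thinning, 0.78 and 0.34 with at least 3 UMIs of Sag and Rp1, 0.96 and 0.52 with Rp1 alone, 2.07 and 1.67 in rod-like barcodes and 1.02 and 0.35 without leukocyte clusters; it was 0.58 in MSC-sEV with mt- up to 25% and 0.34 in PBS with 1000 UMIs, 500 genes and 10% mt-. That of Meg3 in MSC-sEV, 0.019, was -0.57 with equal weights, -0.78 thinned, 0.44 in rod-like barcodes, 0.48 without leukocyte clusters and -1.06 without cluster 13, an alternative chosen after seeing the data. In PBS, at -1.64, it was -0.34 with equal weights, -0.76 thinned and -0.28 in rod-like barcodes. The MSC-sEV over PBS log2 ratio of Malat1 in rod-like barcodes, 0.86, was 0.85 without mt- UMIs, 0.84 also without ribosomal and member UMIs, 0.61 with equal weights, 0.73 thinned, 0.97 with the stricter filter, 0.79 with mt- up to 25%, 0.96 without the highest Scrublet scores, 0.80 and 1.02 at resolutions of 0.5 and 2.0, 0.96 with members among the variable genes and 0.77 with classes by marker score. In clusters 1 and 7 it was 0.072 and in clusters 5 and 6 -0.45, both also chosen after seeing the data; there Mir124a-1hg, 1.27 over rod-like barcodes, was -0.080 in clusters 5 and 6. Meg3 in rod-like barcodes, -1.14, was -1.84 with equal weights. The low over high mt- log2 ratio of Snhg11 in MSC-sEV, 2.52, was -0.82 in rod-like barcodes, which held only 8 of its UMIs, too few to give a direction. That of Neat1 in PBS, 1.65, was -0.0041 without leukocyte clusters. In microglia-like barcodes the MSC-sEV over PBS log2 ratio of Mir124-2hg, -1.01, ranged from -2.82 at resolution 0.5 to -0.78 with equal weights, and was -1.69 without the highest Scrublet scores and -2.17 with classes by marker score. That of Malat1, -0.61, ranged from -0.83 to -0.47, that of Neat1, 1.42, from 0.94 to 2.17, and that of Mir124a-1hg, -0.52, from -1.91 to 0.48. Beyond what each alternative leaves out by construction, the cause was not tested. Snhg11 and Meg3 are limited by depth in rods, where all their ratios rest on under 100 UMIs. No paired analysis was possible because each group is 1 library.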
